A study of Homo sapiens with 6 samples.

Results

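The miRNAs miR-221 and miR-222 were examined as both arms of each precursor, miR-221-3p, miR-221-5p, miR-222-3p and miR-222-5p, which were found by name as 4 of the 1155 mature miRNAs in the deposited table. Small RNA was sequenced from 6 libraries of the established human cell line U2OS, derived from an osteosarcoma. Of these, 3 libraries (LINC00673 replicates 1 to 3) came from cells with a stably introduced shRNA against the long non-coding RNA LINC00673, and 3 (NC replicates 1 to 3) from the cells they were compared with. The design text calls the comparison cells wild-type, and no label states whether NC cells carried a control construct or whether the shRNA line was a clone or a pool. LINC00673 itself was not measured by these small RNA libraries, so its knockdown was not checked. Values are CPM, the reads of a miRNA scaled to a common library total. Separate cultures are not recorded for the replicates, and the p-values cover only the spread among these libraries, which may be technical. In such bulk libraries fewer expressing cells and less RNA per cell cannot be told apart.

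The 2 miRNAs are transcribed together from 1 X-linked locus and share a seed, the bases with which a miRNA finds its targets. Their 3p arms are known for repressing CDKN1B, the p27 inhibitor of cyclin-dependent kinases, and the related inhibitor CDKN1C, as well as the receptor tyrosine kinase KIT, and they are often abundant in mesenchymal and proliferating tumour cells. The 5p arms are the strands less often kept by Argonaute.

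The seed shared by the 3p arms is shown first because it defines the pair. The mature sequences (RefSeq, GRCh38.p14) are written 5′ to 3′ with the seed, bases 2 to 8, in capitals. An entry was matched for 3 of the 4 arms, and miR-221-5p is named only.
hsa-miR-221-3p: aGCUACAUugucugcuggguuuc
hsa-miR-222-3p: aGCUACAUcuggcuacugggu
hsa-miR-222-5p: cUCAGUAGccaguguagauccu
The 3p arms began with the same 8 bases and differed by an edit distance of 6 over their whole length of 23 and 21 bases. Among 2370 mature human miRNA names in RefSeq, these 2 were the ones with this seed, and miR-222-5p was the only 1 with its own.

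The precursors are shown to place both arms, with the mature arms listed in RefSeq in capitals.
MIR221: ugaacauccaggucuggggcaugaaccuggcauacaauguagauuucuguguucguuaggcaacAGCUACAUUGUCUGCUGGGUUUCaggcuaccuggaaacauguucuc
MIR222: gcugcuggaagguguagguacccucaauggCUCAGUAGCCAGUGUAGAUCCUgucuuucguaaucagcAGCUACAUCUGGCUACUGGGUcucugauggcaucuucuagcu
MIR221 lies on the minus strand of chromosome X from 45746157 to 45746266, and MIR222 from 45747015 to 45747124 (GRCh38, GENCODE release 29), with 748 bp between them. Both sit in the single intron of the longer annotated transcript of the host gene MIR222HG (chromosome X, 45745211 to 45770274), 23150 and 24008 bases downstream of its start for MIR222 and MIR221. Neither overlaps an exon of MIR222HG, and the shorter annotated transcript ends before both.

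**Figure D1:**
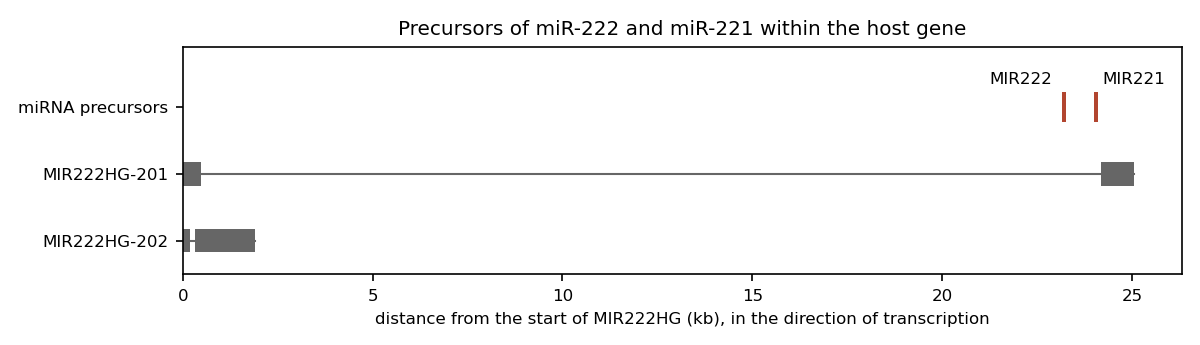
Map of MIR222HG to scale, with distance from its start in kb on the horizontal axis, exons as grey boxes and the precursors as red boxes. MIR222 starts 23150 bases and MIR221 24008 bases from the start, both between the exons of the longer transcript.

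The match to the seed, ATGTAGC, occurred 2 times in the 3′ UTR of CDKN1B (1344 bases, chromosome 12), and these sites are shown as the textbook targets of the pair. Each is printed with 22 bases before and 1 after the match, which is in capitals, read from the GENCODE transcript on the plus strand.
CDKN1B site 1: gatctgcctctaaaagcgttggATGTAGCa
CDKN1B site 2: gtgtatatagtttttaccttttATGTAGCa
The stretches span chromosome 12, 12721206 to 12721235 and 12721279 to 12721308 (GRCh38). The motif was searched on the transcript strand only and occurred in 6.28% of the 1210 human 3′ UTRs within 10% of this length, with 0.331% holding 2 or more matches. It occurred 1 time in the 3′ UTR of CDKN1C, 2 times in that of KIT and 0 times in that of CDKN1A, which encodes the p21 inhibitor. A match is a stretch of letters and not a measured site, and no mRNA was measured in these libraries.

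The libraries held 211242 to 543144 reads on listed miRNAs, with 265883 or more in the LINC00673 group and 331387 or fewer in the NC group. NC replicate 3 was farther from the other NC libraries than from the LINC00673 libraries. Over the 164 miRNAs averaging 100 CPM or more, its mean absolute log2 difference was 0.47 and 0.41 to NC replicates 1 and 2, and 0.30, 0.35 and 0.34 to LINC00673 replicates 1, 2 and 3. NC replicates 1 and 2 were themselves 0.36 apart, so the NC libraries were all well apart. Of 5 mesenchymal marker miRNAs, 4 were above 0 in all libraries, with a summed level of 1141 to 1420 CPM for LINC00673 and 902 to 1171 CPM for NC. Most of this sum was miR-31-5p (mean 900 CPM over all libraries), higher for LINC00673 by a log2 difference of 0.59. Against it, miR-199a-5p (mean 243 CPM) was lower (-0.59), so the markers did not share a direction. The listed epithelial markers summed to 2.63 to 16.2 CPM for LINC00673 and 12.4 to 23.7 CPM for NC. Of 6 blood markers, 3 were above 0 in all libraries, with sums of 184 to 242 CPM for LINC00673 and 153 to 237 CPM for NC, and miR-223-3p, miR-451a and miR-144-3p were not among the 1155 listed miRNAs. The neural marker miR-9-5p was at 2027 to 2141 CPM for LINC00673 and 1820 to 2106 CPM for NC, above the mesenchymal sum, while miR-124-3p was not among the listed miRNAs. The muscle markers summed to 34.2 to 40.6 CPM and 37.2 to 73.9 CPM, and the liver marker miR-122-5p was at 14.8 to 15.8 CPM and 9.63 to 20.3 CPM. The endothelial marker miR-126-3p was at 2987 to 3931 CPM for LINC00673 and 3617 to 5437 CPM for NC. The part of these markers in the results was not tested.

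All 4 arms were detected in every library, in the same order of level, miR-221-3p, miR-222-3p, miR-221-5p and miR-222-5p. By mean CPM they ranked 8, 35, 51 and 148 among the 1155 miRNAs. Adapter ligation favours some sequences, so the order of arms is one of reads and not of molecules. All 4 group means lay above those of NC in the LINC00673 libraries, by 1.41, 1.25, 1.43 and 1.44 times in that order. Together the arms took 4.05% to 4.17% of the listed CPM of each LINC00673 library. They took 2.43% of it for NC replicate 1, 2.58% for NC replicate 2 and 3.99% for NC replicate 3.

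The miR-221-3p arm, the main product of the locus and the one with the most reads, was at 22251, 25100 and 24096 CPM in LINC00673 replicates 1, 2 and 3. In NC replicates 1, 2 and 3 it was at 13722, 14327 and 22770 CPM. NC replicate 3 lay between LINC00673 replicates 1 and 3, so the groups overlapped, while NC replicates 1 and 2 lay below every LINC00673 library. The group levels were 23816 ± 1445 and 16939 ± 5058 CPM (SD, n = 3 each), a log2 difference on the log2(CPM + 1) scale of 0.53 (standard error 0.17, limma adjusted p = 0.182).

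The miR-222-3p arm, which shares the seed, was at 4089, 3388 and 3309 CPM in LINC00673 replicates 1, 2 and 3, and at 2170, 2620 and 3840 CPM in NC replicates 1, 2 and 3. Here LINC00673 replicate 1 was highest and NC replicate 3 second, above LINC00673 replicates 2 and 3. The levels of 3595 ± 429.2 and 2877 ± 864 CPM (SD, n = 3 each) differed by 0.36 on the log2 scale (standard error 0.19, limma adjusted p = 0.491).

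The miR-221-5p arm, the passenger strand of MIR221, was at 2004, 1354 and 1284 CPM in LINC00673 replicates 1, 2 and 3, and at 672, 799 and 1783 CPM in NC replicates 1, 2 and 3. The same 2 libraries as for miR-222-3p were highest, 1 of each group. Its levels of 1547 ± 397 and 1085 ± 608 CPM (SD, n = 3 each) differed by 0.62 on the log2 scale (standard error 0.26, limma adjusted p = 0.352).

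The miR-222-5p arm, the passenger strand of MIR222, was at 131, 178 and 169 CPM in LINC00673 replicates 1, 2 and 3, and at 112, 106 and 115 CPM in NC replicates 1, 2 and 3. It was the only arm whose groups did not overlap, 1 of 4, where 7.78% of the 810 miRNAs tested were separated in this direction and 7.65% in the other. These values rested on 33 to 132 reads, and the gap between LINC00673 replicate 1 (50 reads) and NC replicate 3 (34 reads) lay within counting errors of 14.1% and 17.1%. In 1 random thinning of the reads to the smallest library total, the groups overlapped. LINC00673 replicate 1 was then at 125 CPM, below NC replicate 1 at 132 CPM. The spread of the NC libraries, a coefficient of variation of 4.14%, was below their counting errors of 13.6% to 17.4%. The levels of 159 ± 24.6 and 111 ± 4.59 CPM (SD, n = 3 each) differed by 0.51 on the log2 scale (standard error 0.25, limma adjusted p = 0.444). The other 3 arms had 249 reads or more in every library.

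**Figure D2:**
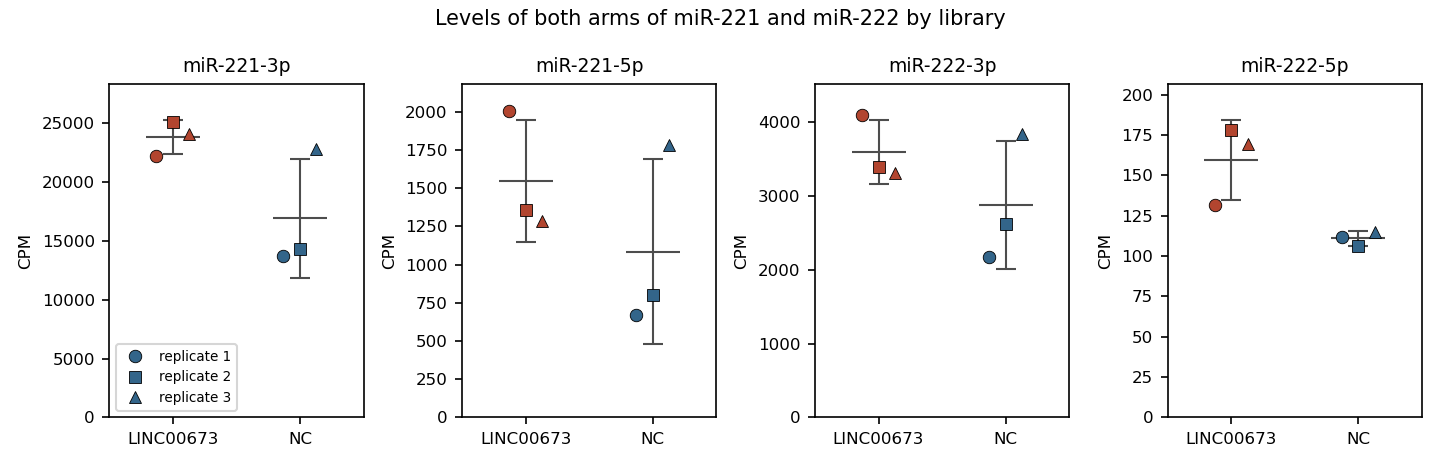
CPM of each arm (vertical axes from 0) in the LINC00673 (red) and NC (blue) libraries, with a marker shape per replicate number and bars for mean ± SD (n = 3). NC replicate 3 reaches the LINC00673 range for miR-221-3p, miR-221-5p and miR-222-3p, and miR-222-5p shows no overlap.

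None of the 4 arms passed limma, where 2 miRNAs, 0.247% of the 810 tested, passed as higher, and 2 of the 4 had an unadjusted p under 0.05 (0.00546 for miR-221-3p and 0.0261 for miR-221-5p), against 6.67% of tested miRNAs higher at that level. In edgeR all 4 had an unadjusted p under 0.05, against 8.89% higher. On the reads recovered from the CPM steps, edgeR's quasi-likelihood test passed 1 of the 4 arms as higher, miR-221-3p (log2 difference 0.59, edgeR adjusted p = 0.0166), where 1.85% of tested miRNAs passed in this direction and 0.864% as lower. The edgeR adjusted p was 0.0579 for miR-221-5p and 0.209 each for miR-222-3p and miR-222-5p. DESeq2 passed 0 of the 4 (adjusted p = 0.208 for miR-221-3p and 0.383 to 0.506 for the others), where 0.929% of the 323 miRNAs it gave an adjusted p passed as higher and 2.17% as lower. The edgeR call for miR-221-3p was lost when any 1 of the 6 libraries other than NC replicate 3 was left out (edgeR adjusted p = 0.149 to 0.408). The median log2 difference in limma was 0.52 over the 4 arms and 0.06 over all tested miRNAs, and the arms come from 1 locus and are not independent. Over all tested miRNAs the median in edgeR was 0.12.

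**Figure D3:**
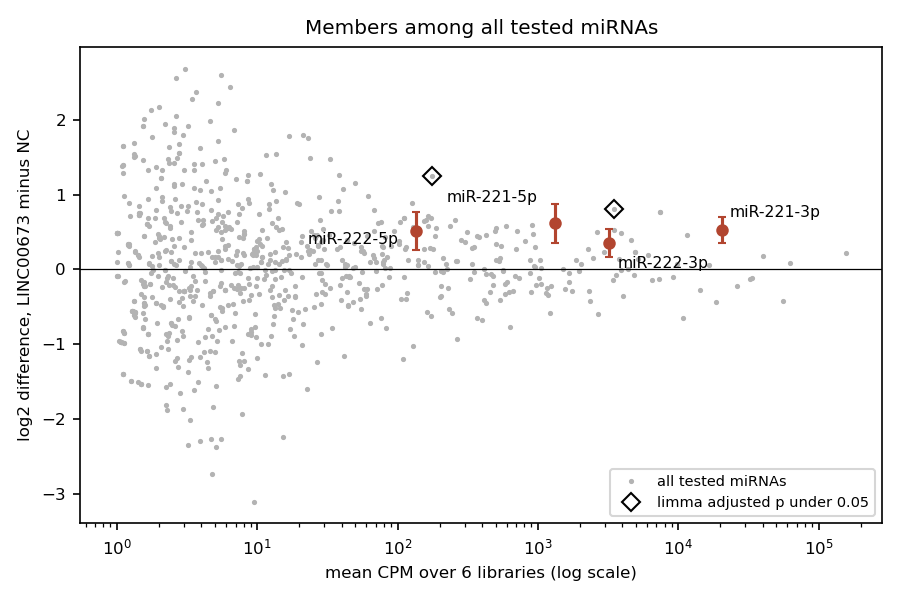
Log2 difference between LINC00673 and NC against mean CPM over 6 libraries (log scale) for the 810 tested miRNAs (grey), with the 4 arms in red and their standard errors as bars. All 4 arms lie above 0, from 0.36 to 0.62, and the miRNAs past limma, in diamonds, are not among them.

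NC replicate 3 carried the largest NC value for all 4 arms, and it exceeded both other NC libraries in 37.9% of tested miRNAs. Without it, all 4 arms lay higher in every LINC00673 library than in NC replicates 1 and 2, as did 14.9% of tested miRNAs. The log2 differences were then 0.76, 1.047, 0.59 and 0.54 for miR-221-3p, miR-221-5p, miR-222-3p and miR-222-5p, and limma passed none (adjusted p = 0.0861, 0.109, 0.144 and 0.263), nor any of the 810 miRNAs, with 76 higher and 61 lower at an unadjusted p under 0.05. In edgeR 3 of the 4 passed as higher, miR-221-3p (0.88, edgeR adjusted p = 1.91e-06), miR-221-5p (1.20, edgeR adjusted p = 5.37e-05) and miR-222-3p (0.71, edgeR adjusted p = 0.00197), where 4.44% of tested miRNAs did and 1.6% passed as lower. The same 3 passed DESeq2 (adjusted p = 8.21e-05, 0.000489 and 0.0307), where 5.59% of the 322 miRNAs with an adjusted p did and 3.42% passed as lower, while miR-222-5p passed neither (adjusted p = 0.116 in edgeR and 0.388 in DESeq2). Of these fits, those in edgeR and DESeq2 were chosen after the data were seen. Without NC replicate 3, the median log2 difference over all tested miRNAs was 0.05 in limma, 0.15 in edgeR and 0.03 in DESeq2. No label sets this library apart, so the values describe how far 1 control library decides the comparison.

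**Figure D4:**
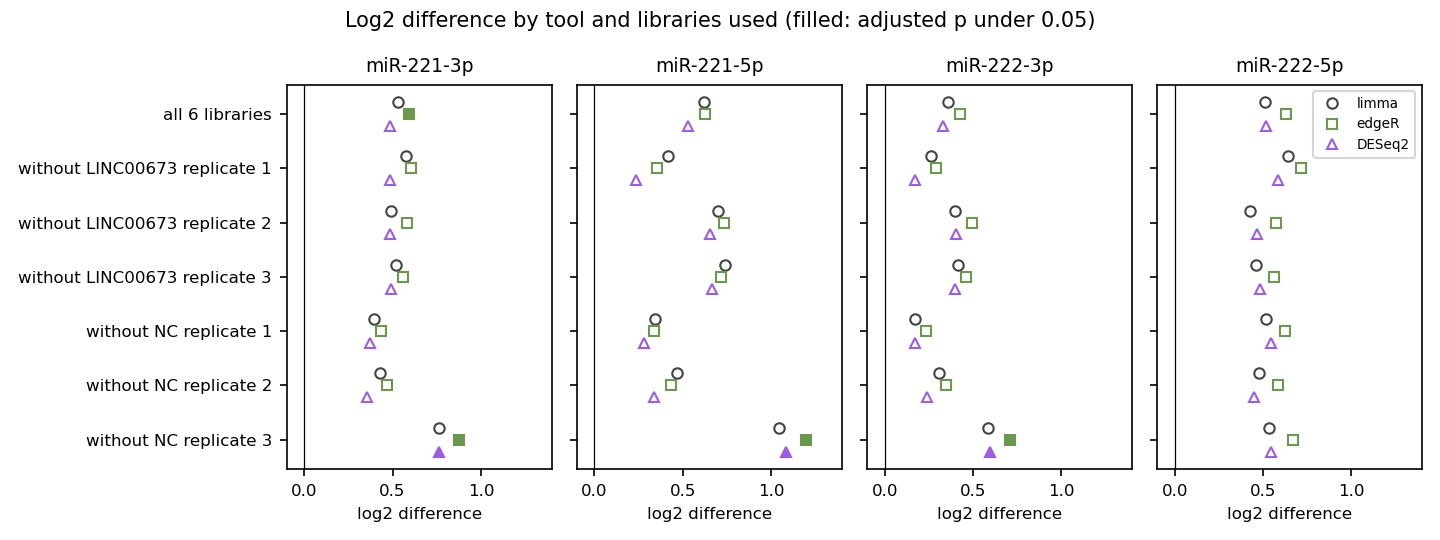
Log2 difference (LINC00673 minus NC, horizontal axes) of each arm in limma, edgeR and DESeq2 with all 6 libraries and with each library left out, with filled markers for an adjusted p under 0.05. With all 6 libraries edgeR passed miR-221-3p alone, and without NC replicate 3 edgeR and DESeq2 passed the arms other than miR-222-5p.

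The ratio of 3p to 5p reads compares the strands of 1 precursor within a library and does not depend on the library's scaling, though ligation bias keeps it from being a ratio of molecules. For miR-221 it was 11.1, 18.5 and 18.8 in LINC00673 replicates 1, 2 and 3, and 20.4, 17.9 and 12.8 in NC replicates 1, 2 and 3. LINC00673 replicate 1 and NC replicate 3 were lowest and the other 4 libraries lay close together, across the groups. The mean was 16.1 ± 4.36 against 17.0 ± 3.89 (SD, n = 3 each), a log2 difference of -0.09 (exact permutation p = 0.7, two-sided, 0.8 adjusted over 4 ratios, with 0.1 as the smallest p that 3 against 3 allows).

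For miR-222 the ratio was 31.1, 19.1 and 19.6 in LINC00673 replicates 1, 2 and 3, and 19.4, 24.7 and 33.4 in NC replicates 1, 2 and 3. The same 2 libraries stood at the end of the range, here as the highest. The mean was 23.2 ± 6.81 against 25.8 ± 7.05 (SD, n = 3 each), a log2 difference of -0.15 (exact permutation p = 0.6, adjusted 0.8). In limma over the 184 arm pairs with a mean of at least 1 CPM in each arm, 0 pairs (0%) passed and 17 (9.24%) had an unadjusted p under 0.05, and the adjusted p was 0.936 for miR-221 and 0.899 for miR-222. Among the 80 pairs with at least 10 CPM in each arm, the log2 range over the 6 libraries was 0.88 for miR-221 and 0.80 for miR-222, rank 66 and 68 from the widest, with a median of 1.38 over all pairs. Arms near 10 CPM have fewer reads than the arms of miR-221 and miR-222, and the part of read depth in these ranks was not tested.

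**Figure D5:**
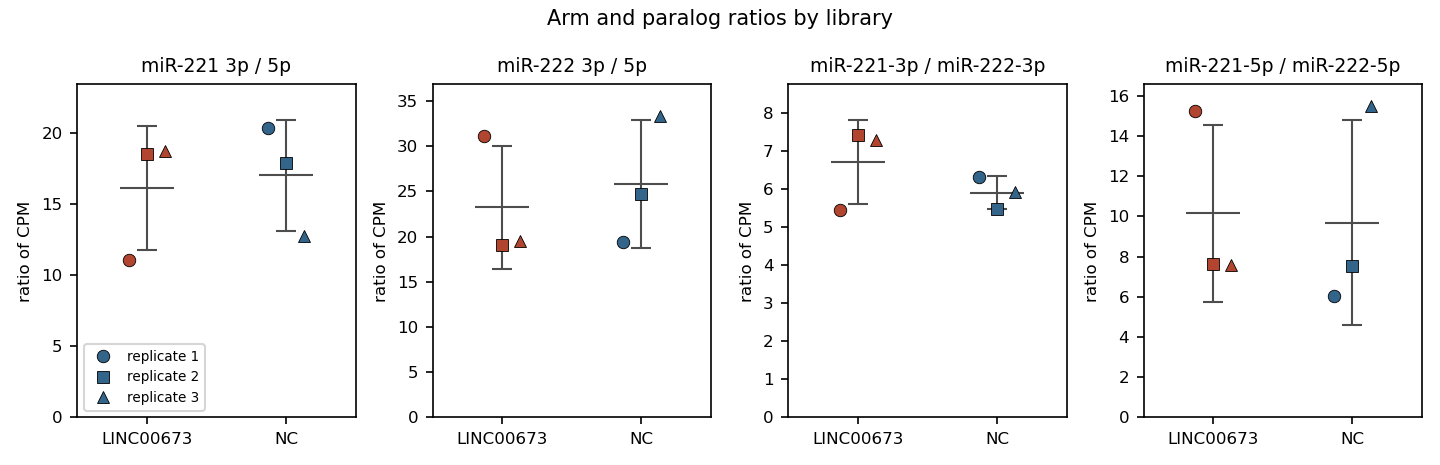
Ratios of CPM (vertical axes from 0) between arms and between paralogs in each LINC00673 (red) and NC (blue) library, with a marker shape per replicate number and bars for mean ± SD (n = 3). For miR-221-5p over miR-222-5p, LINC00673 replicate 1 and NC replicate 3 stand at 15.2 and 15.5 and the other 4 libraries at 6.02 to 7.61.

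Between paralogs, miR-221-3p had 5.44, 7.41 and 7.28 times the CPM of miR-222-3p in LINC00673 replicates 1, 2 and 3, and 6.32, 5.47 and 5.93 times in NC replicates 1, 2 and 3. The seed family was thus mostly miR-221-3p in every library, and miR-222-3p made up 11.9% to 15.5% of its reads. The mean ratio was 6.71 ± 1.101 against 5.91 ± 0.428 (SD, n = 3 each), a log2 difference of 0.17 (exact permutation p = 0.4, adjusted 0.8). The 3p reads of the family summed to 27411 ± 1074 CPM for LINC00673 and 19816 ± 5907 CPM for NC (SD, n = 3 each).

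The ratio of miR-221-5p to miR-222-5p was 15.2, 7.61 and 7.59 in LINC00673 replicates 1, 2 and 3, and 6.02, 7.55 and 15.5 in NC replicates 1, 2 and 3. The passenger strands thus varied more between libraries of 1 group than between groups, with means of 10.1 ± 4.41 and 9.69 ± 5.09 (SD, n = 3 each; exact permutation p = 0.8, adjusted 0.8). As a share of the 5p reads of both, miR-222-5p took 6.16% in LINC00673 replicate 1 (95% Wilson interval 4.70% to 8.03%) and 6.06% in NC replicate 3 (4.37% to 8.35%). In the other 4 libraries it took 11.6% to 14.2%, with intervals reaching down to 8.46%. The gap exceeded counting error, though these 2 libraries were picked as the extremes of this same ratio. The same pair stood apart in the 5p share of miR-221 reads, which rests on the same miR-221-5p reads and is not independent. This share was 8.26% (7.72% to 8.84%) in LINC00673 replicate 1 and 7.26% (6.69% to 7.88%) in NC replicate 3, against 4.67% to 5.29% in the others (intervals from 4.20% to 5.96%). In the 5p share of miR-222 reads the pair was at 3.12% (2.37% to 4.08%) and 2.91% (2.09% to 4.04%), against 3.89% to 4.99%, and these intervals overlapped those of NC replicates 1 and 2. The library totals were 380298 reads for LINC00673 replicate 1, 295567 for NC replicate 3 and 311448 for NC replicate 2, whose ratio was 7.55, and the part of depth in these ratios was not tested.

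Over the 6 libraries, the pattern of miR-221-5p was closest to that of miR-222-3p, the opposite arm of its paralog (Pearson r = 0.99 on the log2(CPM + 1) scale, the highest for either among 163 other miRNAs averaging 100 CPM or more). The r was 0.87 between the 3p arms and 0.85 between the arms of miR-221, rank 20 and 21 of 163 for miR-221-3p. For miR-222-5p, at 33 to 132 reads, it was 0.77 with miR-221-3p, 0.41 with miR-222-3p and 0.38 with miR-221-5p. With 6 points that share library composition, these are descriptions and were not tested. After miR-221-5p, the closest to miR-222-3p were miR-423-3p (0.98), miR-708-5p (0.95), miR-105-5p (0.95) and miR-320a-3p (0.94). The 5 closest to miR-221-3p were miR-361-5p (0.95), miR-148b-3p (0.95), miR-421 (0.94), miR-23a-3p (0.94) and miR-92b-3p (0.94), of which miR-92b-3p passed limma (adjusted p = 0.0392).

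Other miRNAs reported to repress the CIP/KIP inhibitors CDKN1A, CDKN1B and CDKN1C did not share a direction. Of 12 listed, 10 were tested, 5 of them with a log2 difference above 0, as had 431 of all 810 tested, and the median was 0.02 against 0.06 over all tested miRNAs. In limma 1 passed as higher, miR-92b-3p, known to target CDKN1C (245 ± 14.8 against 107 ± 37.1 CPM, SD, n = 3 each, log2 difference 1.24, adjusted p = 0.0392), and 0 as lower, with 2 at an unadjusted p under 0.05 in either direction, where 11.1% of all tested miRNAs (90 of 810) were. edgeR and DESeq2 likewise passed this member as higher and 0 as lower. Of all tested miRNAs, limma passed 0.247% as higher and 0% as lower, and edgeR passed 1.85% and 0.864%. DESeq2 passed 0.929% as higher and 2.17% as lower of those with an adjusted p. The most abundant were miR-93-5p, which targets CDKN1A, at 24051 ± 2489 against 28215 ± 3858 CPM and miR-25-3p, which targets CDKN1C, at 16932 ± 1658 against 16293 ± 2032 CPM. Among those reported for CDKN1B itself, miR-24-3p was at 3483 ± 322 against 3674 ± 328 CPM and miR-148a-3p at 6190 ± 310 against 6820 ± 411 CPM. For miR-181a-5p the LINC00673 libraries were at 294.5, 247.9 and 280.6 CPM and the NC libraries at 144.8, 131.6 and 321.4 CPM, again with NC replicate 3 apart from the other NC libraries.

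Of 12 miRNAs known to target cyclins or cyclin-dependent kinases, the opposite arm of this control, 10 were tested, 5 with a log2 difference above 0 (431 of 810 over all), and the median was 0.06, as over all tested miRNAs. Limma and edgeR passed 0, against the shares of all tested miRNAs given above. In limma 2 of the 10 had an unadjusted p under 0.05, against 11.1% of all tested. Against 2.17% of all miRNAs with an adjusted p, DESeq2 passed 1 as lower, miR-34a-5p, a miRNA induced by p53 (976 ± 36.9 against 1468 ± 62.2 CPM, SD, n = 3 each, DESeq2 adjusted p = 0.00785). The most abundant were miR-16-5p at 47848 ± 638 against 64441 ± 3922 CPM and let-7a-5p at 42528 ± 1199 against 37456 ± 1302 CPM, neither of which passed (DESeq2 adjusted p = 0.0665 and 0.571).

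A further group of X-linked miRNA genes, the cluster in the chloride transporter gene CLCN5, gave a comparison from the same chromosome. Of its 16 arms, 15 were tested, 7 with a log2 difference above 0 and a median of -0.01. None passed limma, edgeR or DESeq2, against the shares of all tested miRNAs given above. In limma 0 had an unadjusted p under 0.05, against 11.1% of all tested. Its most abundant arms were miR-532-5p at 1003 ± 74.1 against 1279 ± 335 CPM and miR-660-5p at 567 ± 58.6 against 636 ± 35.1 CPM (SD, n = 3 each).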

How the data were processed

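The authors deposited 1 table of CPM values per mature miRNA for 6 libraries of U2OS cells, made from total RNA extracted with TRIzol and a NEBNext small RNA kit, per the labels' protocols. The submitters' processing notes name hg38 as the build, and aligner, counting program, miRBase release and treatment of shared reads are not stated in the labels. Within each library, 100% of CPM values were whole multiples of 1 read's worth (tolerance 0.1 read), and whole reads were recovered on denominators of 295567 to 762663 reads. A floor of 3 reads corresponds to 3.93 to 10.1 CPM. Molecular identifiers are not mentioned, and intervals cover counting error only.

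The main test was two-sided limma 3.58.1 in R 4.3.3, with its trend option, on log2(CPM + 1) of the 810 miRNAs averaging 1 CPM or more. P-values were adjusted by the Benjamini-Hochberg method and called under 0.05. Fold changes on this scale understate those of low miRNAs. edgeR 4.0.16 (quasi-likelihood, TMM) and DESeq2 1.42.0 on the recovered reads of the same 810 miRNAs were alternatives; edgeR called 22, and DESeq2 gave no adjusted p for 487 of them. Ratios were compared by exact permutation tests of mean log2 ratios (scipy 1.17.1). The fits were also run on simulated reads with the same dispersion for all miRNAs, changes larger than those of the arms and no divergent library. Those settings differ from these data, so the simulation cannot vouch for the fits of the arms. Named miRNAs were the members, the 5 with the highest correlation with each 3p arm, the 2 most abundant members of each list and any list member past a test, and others were chosen after their values were seen. Members and lists were chosen with earlier results of these data known. Libraries of 1 group differed by more than sampling noise (chi-square per degree of freedom of at least 2.73), so the library and not the read was the unit. This spread cannot show whether the libraries were separate cultures or technical preparations. The lowest value was that of LINC00673 replicates 2 and 3, whose mean absolute log2 difference was 0.10 over miRNAs averaging 100 CPM or more. For the other pairs within a group it was 0.24 to 0.47.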

Additional observations from a re-analysis of the deposited data

How the results depend on the processing

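The log2 difference of each arm kept its direction in all 30 alternative fits per arm, which all reuse the same 6 libraries. Changing the filter, dropping the intensity trend or adding the replicate block cannot alter this difference, so those fits do not test its direction. The log2 difference ranged from 0.36 to 0.88 for miR-221-3p, 0.24 to 1.20 for miR-221-5p, 0.17 to 0.71 for miR-222-3p and 0.33 to 0.71 for miR-222-5p. Leave-one-out values were 0.42 to 0.71 for miR-222-5p and the whole of these ranges for the other 3. Beyond edgeR with all libraries (0.59 for miR-221-3p), arms passed when NC replicate 3 was left out, in edgeR (values in the text) and DESeq2 (0.76, 1.08 and 0.60 for miR-221-3p, miR-221-5p and miR-222-3p). Leave-one-out fits in edgeR and DESeq2 were chosen after seeing the data, and an adjusted p in limma did not pass for any arm. The 2 miRNAs past limma became 8 and 0 with pseudocounts of 5 and 0.5 CPM, 11 without a filter, 0 with a mean of at least 10 CPM, 5 when rescaled without the 10 most abundant, and 0 with quantile normalization, no intensity trend or thinned reads. edgeR gave 22, DESeq2 gave 10, and leave-one-out fits gave 0 in limma, 0 to 49 in edgeR (14, 7 and 49 without NC replicates 1, 2 and 3) and 0 to 29 in DESeq2 (6 and 29 without NC replicates 1 and 3). The cause was not tested. Arm pairs past limma were 0 in all 12 alternatives.

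Without 1 library the log2 difference in the 3p to 5p ratio was -0.28 to 0.16 for miR-221 and -0.38 to 0.050 for miR-222, and it was 0.035 for miR-222 with thinned reads, so neither has a stable direction. That in the miR-221-3p to miR-222-3p ratio was 0.09 to 0.32, and that in the miR-221-5p to miR-222-5p ratio was -0.22 to 0.51. Whether replicate numbers pair the libraries could not be settled from these values. Deviations of same-numbered libraries correlated at 0.03, 0.07 and 0.01, and those of differently numbered libraries at -0.07 to 0.04. LINC00673 replicate 3 correlated best with NC replicate 1 (0.04). Correlations this small can neither show pairing nor exclude it. With the replicate number as a block, 2 miRNAs passed limma, as without it, and the 4 arms had an adjusted p of 0.158, 0.284, 0.472 and 0.427 for miR-221-3p, miR-221-5p, miR-222-3p and miR-222-5p. The read depth limits miR-222-5p most, with 33 reads in NC replicate 2, its lowest count.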

Other observations

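The miRNAs closest in pattern to the 5p arms were chosen after their values were seen. Those closest to miR-221-5p after miR-222-3p were miR-105-5p (Pearson r = 0.96 over 6 libraries), miR-423-3p (0.96), miR-181a-5p (0.94) and miR-15a-5p (0.93). Those closest to miR-222-5p were miR-374a-5p (0.97), miR-576-5p (0.94), miR-23a-3p (0.93), miR-25-5p (0.92) and miR-361-5p (0.90). These values were not tested.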
